A study of Ovis aries with 30 samples.

Results

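Perirenal brown adipose tissue (BAT) was compared between 6 newborn lambs kept for 2 days at an ambient temperature of 20–22 °C (AT) and 3 lambs sampled at the start of the experiment (controls), across all genes that reached 10 reads in 10 or more of the 15 BAT libraries. This filter kept 14940 of the 28524 genes of the count table, and 2508 of the kept genes carried only a LOC identifier. All lambs were Romney lambs of both sexes, each born as a twin on pasture to a different ewe and brought indoors within the first day after birth. The controls were killed soon after arrival, whereas the AT lambs stayed in an indoor pen with the ewe, suckling, for the 2 days. The AT lambs were therefore 2 days older than the controls as well as housed, and age, housing and temperature cannot be told apart in this comparison. The remaining 6 BAT libraries came from lambs kept for 2 days at 4 °C (cold) and entered the same fit. Lambs are named by group and number, AT 1 to AT 6 and Control 1 to Control 3, with numbers given in the order of the deposited samples. In these bulk libraries, fewer cells of a type and less RNA per cell cannot be told apart.

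BAT burns fatty acids and glucose in its mitochondria to make heat, and uncoupling protein 1 (UCP1) in the inner mitochondrial membrane lets the proton gradient run down without making ATP. Noradrenaline from sympathetic nerves starts this process through beta-adrenergic receptors and cyclic AMP. In lambs the depot around the kidneys is brown at birth and takes on features of white fat, the tissue that stores triglyceride and secretes leptin, during the first days and weeks of life.

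The AT and control libraries held between 31556500 and 34523931 counts. A pair of unnamed genes, LOC114112617 and LOC114115287, took between 43.8% and 76.5% of them, so that the depth behind all other genes was 8093700 to 18276329 counts in the AT lambs and 8749813 to 16220016 in the controls (exact permutation test, 2-sided, p = 0.667). Adipocyte and brown adipocyte markers were present in every library. The summed normalized counts of ADIPOQ, FABP4, PLIN1, PPARG, LIPE and CIDEC ranged from 28248 to 110468 in the AT lambs and from 76375 to 266297 in the controls, and those of UCP1, CIDEA, PRDM16, PPARGC1A and DIO2 from 732 to 15703 and from 20902 to 87263. COX7A1, also fixed as a brown adipocyte marker, was not analysed here.

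Control 2 stood apart from the other libraries. It had reads for 16689 genes, against 19082 to 20217 in the other 8 lambs, and lay at 110.0 on the first principal component (61.6% of the variance), where Control 1 lay at 6.86, Control 3 at 11.9 and the AT lambs between -34.6 and -10.7. Its median correlation of log2 counts was 0.845 with the other controls and 0.814 with the AT lambs, while no other library was below 0.90. In Control 2 the difference from the median of the other 8 libraries depended on gene length, with a median of -0.02 (log2) for genes of 56 to 1829 bases and -0.74 for those of 4693 to 70726 bases, a pattern whose part in the results was not tested. Endothelial markers were low there, with a sum of 19259 normalized counts for 10 markers against 57638 to 80470 in the AT lambs and 83947 and 77939 in Controls 1 and 3. Values without Control 2 are given beside many of the results below, and a gene is said to have held where it was called, in the same direction, with all 3 controls and with each control left out in turn.

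With all 3 controls, 1304 genes were called in AT against control lambs at |log2FC| ≥ 1 and an adjusted p under 0.05 (edgeR's quasi-likelihood test with Benjamini-Hochberg adjustment over all genes), which is 8.73% of the genes tested. Of these, 858 were upregulated in AT (5.74%) and 446 were downregulated (2.99%). Without Control 2 the count was 907 (426 upregulated, 2.85%, and 481 downregulated, 3.22%), and 579 of the 1304 genes were among them, 350 upregulated and 229 downregulated. With counts scaled by the reference genes ACTB, RPL19 and HUWE1, the direction of the majority thus turned with Control 2. Without Control 1 the count was 1372 (826 upregulated, 5.53%, and 546 downregulated, 3.65%) and without Control 3 it was 1211 (725 upregulated, 4.85%, and 486 downregulated, 3.25%). In all 4 fits 436 genes were called in the same direction (2.92%), 288 upregulated (1.93%) and 148 downregulated (0.991%). The split also depended on scaling, since edgeR's TMM factors gave 867 upregulated and 773 downregulated genes. TMM without Control 2, a fit added after the data were seen, gave 648 and 369, so that upregulated genes stayed the majority there. The median log2FC of all genes was 0.11 with the 3 reference genes, -0.03 without Control 2 and -0.02 with TMM, and the medians of gene lists below are to be read against these values. Counts of called genes in those lists are to be read against the 5.74% of all genes upregulated and the 2.99% downregulated. The reference genes ACTB and HUWE1 had log2FC of -0.46 and 0.41 (edgeR adjusted p = 0.157 and 0.316), and RPL19 of -0.08. Without overlap between the 6 AT and the 3 control lambs were 2032 genes (13.6%), 1206 higher (8.07%) and 826 lower (5.53%) in AT, with 425 of the 436 held genes among them. The filter itself can hide genes that only the 3 controls express. Among untested genes, 57 had at least 10 reads in all 3 controls, of which 2 were below 10 reads in every AT lamb, and 12 had at least 10 reads in all 6 AT lambs, of which 9 were below 10 reads in every control.

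**Figure D1:**
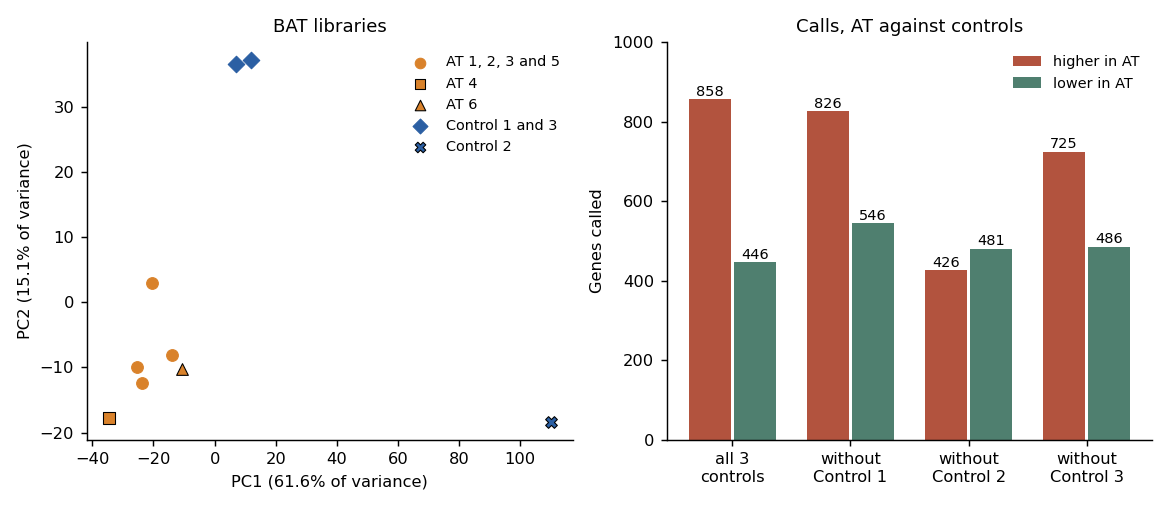
Left, the 6 AT and 3 control BAT libraries on the first 2 principal components of log2 normalized counts (1000 most variable genes). Right, bars of the number of genes called higher or lower in AT with all 3 controls and with each control left out. Control 2 lies at 110.0 on the first component, far from the other 8 lambs, and leaving it out takes the genes called higher from 858 to 426.

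UCP1 (chromosome 17, 18691987 to 18698653 in Oar_rambouillet_v1.0) was measured at 6668, 12308, 3150, 757, 3373 and 192 normalized counts in AT 1 to AT 6 and at 20367, 82999 and 18667 in Controls 1 to 3. Every AT lamb was below every control, and the AT lambs themselves spanned a wide range with AT 6 lowest. The change was a log2FC of -3.21 ± 0.82 (SE; edgeR adjusted p = 0.0203), and it was called without each AT lamb as well. Without Control 2 it was -2.23 (edgeR adjusted p = 0.127), so that the call rested on that library although the groups did not overlap. Per kilobase of exon, the mean of UCP1 was 2772 normalized counts in AT and 25583 in the controls, whereas that of FABP4, the fatty acid-binding protein of adipocytes, was 51068 and 133436.

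Among 18 tested genes for heat production in brown adipocytes, 4 were downregulated and 1 was upregulated, where 2.99% and 5.74% of all genes were, with a median log2FC of -0.40 (-0.25 without Control 2). Glycerol kinase (GK), which lets brown adipocytes reuse glycerol for triglyceride synthesis, was the only one of them that held. It was at 183, 344, 192.5, 151, 346 and 54.0 normalized counts in the AT lambs and 731, 881 and 903 in the controls. All AT lambs were below all controls, with AT 6 lowest, and the log2FC was -1.99 ± 0.44 (edgeR adjusted p = 0.0103; -2.03 and 0.0235 without Control 2). PPARGC1A, the coactivator that drives mitochondrial biogenesis, fell by 1.73 on the log2 scale (SE 0.47, edgeR adjusted p = 0.0271), but AT 1 and AT 3 at 687 and 589 were above Control 3 at 541, and the edgeR adjusted p was 0.117 without Control 2. PDK4, a kinase that turns off pyruvate entry into mitochondria, was called at -2.61 ± 0.71 (edgeR adjusted p = 0.0281) with 41345 normalized counts in Control 2 against 3672 and 2215 in the other controls, and its log2FC was -0.29 without that library (edgeR adjusted p = 0.794).

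PRDM16, a transcription factor that sets brown adipocyte identity, went the other way. It was at 284, 141, 229.5, 358, 306 and 149.7 in the AT lambs and at 86.1, 69.5 and 119 in the controls (log2FC 1.40 ± 0.38, edgeR adjusted p = 0.0259), with 1.16 and an edgeR adjusted p of 0.0966 without Control 2. CIDEA, EBF2, CPT1B, PPARA and the beta-3 receptor gene ADRB3 were not called, with log2FC between -0.93 and 0.47. DIO2, the enzyme that activates thyroid hormone in the tissue, ranged from 19.2 to 964 in the AT lambs and from 485 to 1261 in the controls (log2FC -1.50 ± 0.86, edgeR adjusted p = 0.253). ELOVL3, an elongase of brown fat, was below the filter and was not tested. It had 12, 0 and 17 reads in the controls and at most 2 reads in an AT lamb.

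**Figure D2:**
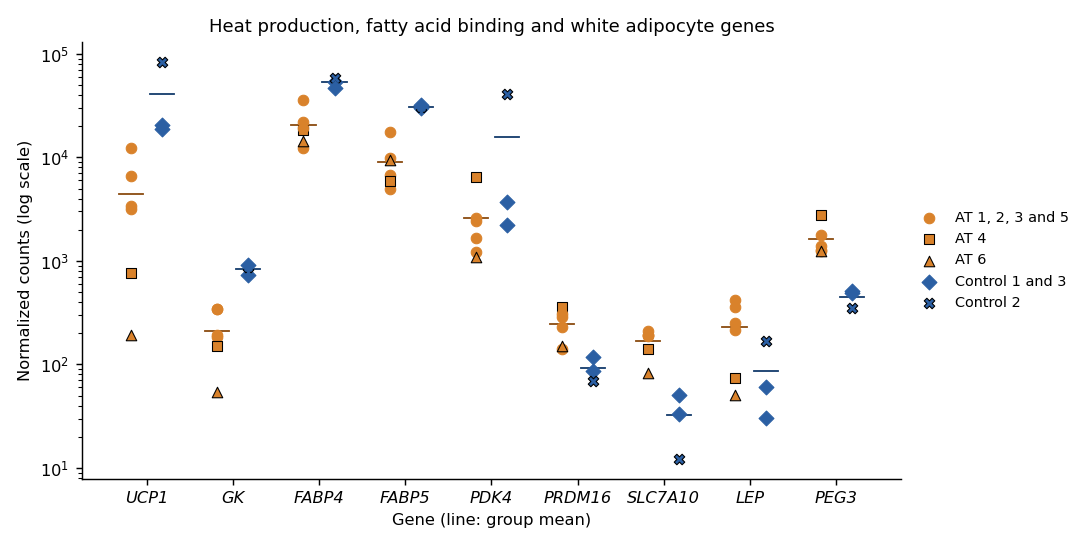
Normalized counts (log scale) of 9 genes of heat production, fatty acid binding and white adipocytes in each AT and control lamb, with a line at each group's mean. FABP4, FABP5, GK and UCP1 lie lower in every AT lamb than in every control, PRDM16, SLC7A10 and PEG3 lie higher, and PDK4 and UCP1 have their highest value in Control 2.

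The fatty acid-binding proteins carry fatty acids through the cytosol of the adipocyte, and 3 of them fell. FABP4 was at 21906, 35906, 12310, 18547, 19199 and 14389 in the AT lambs and at 54028, 58715 and 46979 in the controls (log2FC -1.39 ± 0.30, edgeR adjusted p = 0.00951; -1.39 and 0.0185 without Control 2). FABP5 was at 4921, 17449, 6701, 5864, 9757 and 9497 against 30304, 30633 and 31874 (log2FC -1.78 ± 0.31, edgeR adjusted p = 0.00387). For both genes the 3 controls lay close together and above all AT lambs, and both held. FABP3, the form of oxidative tissue, fell by 1.86 on the log2 scale (SE 0.43, edgeR adjusted p = 0.0134), but its edgeR adjusted p was 0.0721 without Control 1. Of 28 tested genes of lipid storage and release, 4 were downregulated and none upregulated (edgeR; median log2FC -0.16, or 0.13 without Control 2, and between -0.39 and 0.12 over the 6 scalings), and FABP4 and FABP5 were those that held. PLIN2, which coats lipid droplets, was the fourth, with 3295 normalized counts in Control 2 and 231 to 450 in the other 8 lambs, and its log2FC went from -1.89 (edgeR adjusted p = 0.0449) to 0.26 without that library. The adipokine ADIPOQ (log2FC -1.03 ± 0.62, edgeR adjusted p = 0.277) ranged from 10686 to 74699 in AT, with 16075, 194041 and 27000 in the controls. Adipose triglyceride lipase (PNPLA2) was at 13800 to 15619 in 5 AT lambs and at 3207 in AT 6, against 4251 to 7170 in the controls (log2FC 1.05 ± 0.39, edgeR adjusted p = 0.0873).

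Of 37 tested nuclear genes of the respiratory chain, 1 was downregulated, ATP5MC1, and of 25 genes of fatty acid oxidation 1 was downregulated, CPT1A. Of all genes, 2.99% were downregulated. ATP5MC1, a subunit of the proton channel of ATP synthase, held (log2FC -1.62 ± 0.31, edgeR adjusted p = 0.00592), but the table also holds a copy named ATP5MC1_1 and reads that map to several places were counted at each, so its level is uncertain. CPT1A, the outer carnitine transferase that admits fatty acids to mitochondria, had a log2FC of -1.12 ± 0.35 (edgeR adjusted p = 0.0469) with -0.53 and an edgeR adjusted p of 0.319 without Control 1, and -1.59 and 0.00722 without Control 2. The median log2FC was -0.42 for the respiratory chain and -0.43 for fatty acid oxidation with all 3 controls, and -0.03 and 0.16 without Control 2.

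Of 14 tested genes of white adipocytes, 2 were upregulated and none was downregulated (edgeR), where 5.74% and 2.99% of all genes were. The list's median log2FC was 0.47, or 0.41 without Control 2. SLC7A10, a transporter of neutral amino acids (also named ASC-1) that marks white adipocytes, was at 192, 209.6, 188, 139.7, 194 and 81.8 in the AT lambs and at 50.9, 12.3 and 33.25 in the controls (log2FC 2.34 ± 0.42, edgeR adjusted p = 0.00412; 1.91 and 0.0122 without Control 2). All AT lambs were above all controls, and the gene held. NNAT, an imprinted gene, was called at 3.53 ± 1.09 (edgeR adjusted p = 0.0453), but it overlaps BLCAP and its edgeR adjusted p was 0.0673 to 0.158 with a control left out. Leptin (LEP) ranged from 50.3 to 420.3 in AT and from 30.4 to 168 in the controls (log2FC 1.44 ± 0.76, edgeR adjusted p = 0.213). HOXC8, HOXC9 and HOXC10, homeobox genes that differ between fat depots, had log2FC of 0.81, 1.21 and 0.70 and were not called.

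All 38 genes that the authors chose for thermogenesis and whitening were tested. Of these, 4 were upregulated, BMP4, FNDC5 and PRDM16 among them, and 5 were downregulated (UCP1, PPARGC1A, PDK4, CPT1A and FABP3), with a median log2FC of -0.14. Only FNDC5, which encodes the precursor of irisin, held when each control was left out. It was at 265.5, 74.1, 193.5, 167, 110.4 and 239 in AT and at 49.7, 45.0 and 35.4 in the controls (log2FC 2.02 ± 0.41, edgeR adjusted p = 0.0071). VEGFA and NOS3, a vascular growth factor and the endothelial nitric oxide synthase, were not called with all 3 controls (log2FC -1.02 and -1.29, edgeR adjusted p = 0.126 and 0.0681) but were called without Control 2 (-1.53 and -1.87, 0.0228 and 0.00297). With all 3 controls, both were also called with TMM (log2FC -1.14 and -1.34, edgeR adjusted p = 0.0481 and 0.0352). Control 2 held 1349 normalized counts of VEGFA against 8535 and 2593 in the other controls and 1147 to 3255 in AT. For NOS3, which overlaps ATG9B, it held 769 against 8255 and 3993 and was below every AT lamb (1173 to 2284).

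Endoplasmic reticulum (ER) chaperones fold secreted and membrane proteins, and 15 of the 34 tested genes of ER folding and the unfolded protein response were downregulated in AT while none was upregulated (edgeR; 2.99% of all genes were downregulated). The median log2FC was -0.95, or -0.65 without Control 2, and lay between -1.17 and -0.72 over the 6 scalings. Of these genes 9 held: ERO1A, MANF, HSPA5, HYOU1, PDIA4, HSP90B1, CALR, DNAJB11 and PDIA6. HSPA5, the main chaperone of the ER lumen (also named BiP), was at 1177, 1382, 693, 2175, 807 and 1448 in the AT lambs and at 4612, 78115 and 4322 in the controls. Control 2 was far above the other controls, but these were also above every AT lamb, and the log2FC was -4.50 ± 0.69 with all controls (edgeR adjusted p = 0.00228) and -1.90 without Control 2 (0.00712). DESeq2 gave no adjusted p for HSPA5, HSP90B1 and TIMP3, so their calls have no check by that tool. HSP90B1 and PDIA4 showed the same order, with 67538 and 10056 in Control 2, and had log2FC of -3.11 and -2.84 with all controls and of -1.43 and -1.19 without Control 2. ERO1A, the oxidase that supplies disulfide bonds, depended less on that library. It was at 167, 229, 162, 198.5, 207 and 223.5 in AT and at 749, 1229 and 538 in the controls (log2FC -2.08 ± 0.21, edgeR adjusted p = 0.00038; -1.79 and 0.000219 without Control 2).

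Of 34 tested cytosolic and mitochondrial chaperones, 7 were downregulated and none was upregulated, and 33 had a lower fitted level in AT (edgeR; median log2FC -0.59, or -0.48 without Control 2). HSPB1 and HSPH1 held (log2FC -1.47 and -1.56, edgeR adjusted p = 0.00464 and 0.00546). Among the targets of the amino acid stress factor ATF4, 3 of 21 were downregulated and 1 was upregulated. Of these, SLC7A5, which imports large neutral amino acids, held, with 68.6 to 116 normalized counts in AT and 237 to 240.1 in the controls (log2FC -1.45 ± 0.27, edgeR adjusted p = 0.00514).

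Ribosome biogenesis, the assembly of ribosomal subunits in the nucleolus, was the largest list. Of its 72 genes, all tested, 21 were downregulated and none was upregulated (edgeR), and 69 had a lower fitted level in AT. The median log2FC was -0.77, or -0.61 without Control 2, when 12 were called. NIP7, PNO1, TSR1, RRS1, GRWD1, GAR1 and WDR12 held. NIP7, needed for the large subunit, was at 129, 157, 108, 157, 119 and 162 in AT and at 289, 574 and 363 in the controls (log2FC -1.55 ± 0.22, edgeR adjusted p = 0.0013; -1.32 and 0.00221 without Control 2), although it overlaps TMED6 and TERF2. PNO1, a factor of the small subunit, was at 104.7 to 167 in AT and at 285, 472 and 402.5 in the controls (log2FC -1.42 ± 0.21, edgeR adjusted p = 0.0017). NOP58 was called at -1.49 (edgeR adjusted p = 0.0313) with 5452 normalized counts in Control 2 against 1111 and 1456 in the other controls, and was at -0.54 without it (edgeR adjusted p = 0.322). Of the tRNA synthetases 1 of 20 was downregulated (FARSB), of the translation initiation factors 2 of 35 (EIF4A1 and EIF5A) and of the proteasome subunits 1 of 33 (PSME3), none of which held. Fitted levels were lower in AT for 16, 32 and 30 of these genes, with median log2FC of -0.48, -0.34 and -0.58, or -0.47, -0.13 and -0.32 without Control 2. Over the 6 scalings these medians lay between -0.72 and -0.26, -0.59 and -0.11, and -0.81 and -0.33.

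**Figure D3:**
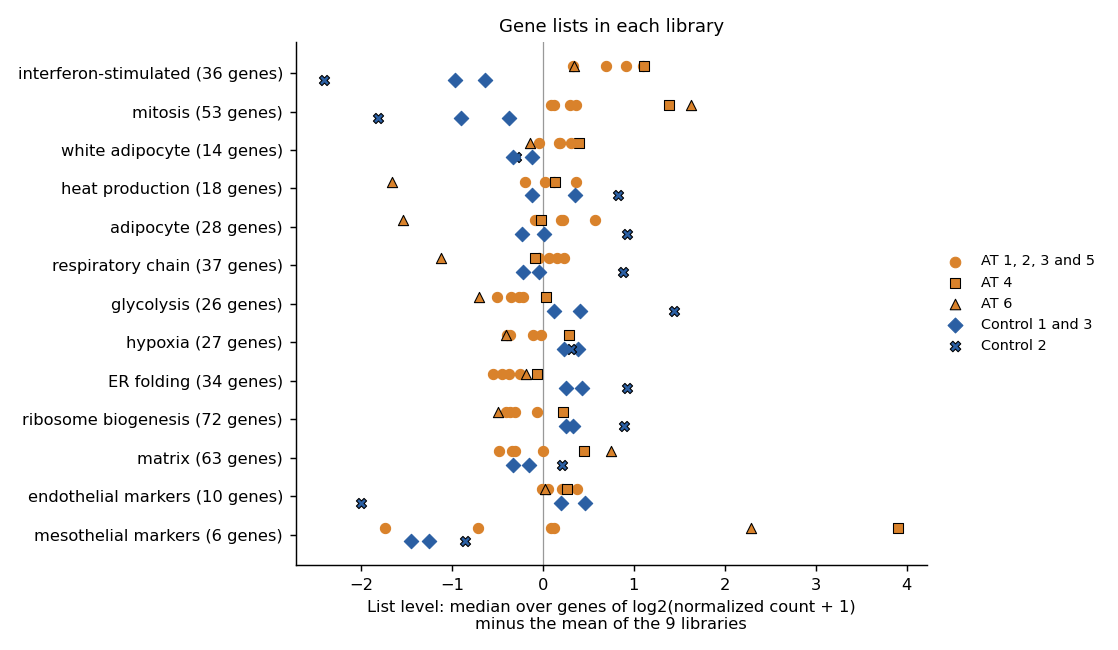
Level of 13 gene lists in each AT and control library, as the median over tested genes of log2(normalized count + 1) after the mean of the 9 libraries was taken off. Interferon-stimulated and mitosis genes lie higher in all AT lambs than in all controls and ER folding, glycolysis and ribosome biogenesis genes lower, with Control 2 at the end of the range in each of these 5 lists, AT 6 lowest for heat production and adipocyte genes, and AT 4 and AT 6 highest for mesothelial markers.

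Glycolysis splits glucose to pyruvate. Of its 26 tested genes, including transporters and pyruvate entry, 13 were downregulated and none was upregulated (edgeR), against 2.99% of all genes downregulated. The list's median log2FC was -1.12, or -0.70 without Control 2, when 5 were called. SLC16A3, SLC2A1, PFKL, LDHA and ENO1 held. SLC2A1, the basal glucose transporter GLUT1, was at 83.8, 45.5, 65.6, 83.0, 40.3 and 77.5 in AT and at 212, 699 and 128 in the controls (log2FC -2.37 ± 0.39, edgeR adjusted p = 0.0029; -1.46 and 0.00842 without Control 2). SLC16A3, which exports lactate, was at 88.0 to 188 in AT and at 729, 290.3 and 355 in the controls, with Control 1 highest (log2FC -1.89 ± 0.30, edgeR adjusted p = 0.00239). LDHA, the lactate dehydrogenase subunit of glycolytic tissue, was at 956 to 2369 against 4065, 6961 and 3497 (log2FC -1.74 ± 0.34, edgeR adjusted p = 0.00595). The insulin-responsive transporter SLC2A4 was not called (log2FC -0.42 ± 0.43, edgeR adjusted p = 0.531).

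Hypoxia-responsive genes are switched on when oxygen is short. Of 27 tested, 6 were downregulated and 1 was upregulated (HIF3A), where 2.99% and 5.74% of all genes were. P4HA1, APLN, EGLN3, FLT1 and ANKRD37 held. The median log2FC of the 27 genes was -0.50, or -0.30 without Control 2. P4HA1, which hydroxylates proline in collagen, was at 267, 448, 241, 295, 289 and 395 in AT and at 1244, 1648 and 1436 in the controls (log2FC -2.16 ± 0.25, edgeR adjusted p = 0.000463; -2.14 without Control 2). APLN (chromosome X, 121345900 to 121355115), which encodes the peptide ligand apelin, was at 27.3, 26.5, 20.1, 40.5, 25.4 and 94.6 in AT and at 920.2, 102 and 612 in the controls. Control 2 was the lowest control, only just above AT 6, and the log2FC was -3.77 ± 0.59 with all controls (edgeR adjusted p = 0.00239) and -4.34 without Control 2. EGLN3, an oxygen-sensing hydroxylase, had a log2FC of -1.68 ± 0.30 (edgeR adjusted p = 0.00419). HIF1A itself was called at -1.38 with all controls and stood at -0.22 without Control 2 (edgeR adjusted p = 0.629).

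Vascular growth factors and their receptors numbered 23, of which 2 were downregulated, APLN and the VEGF receptor gene FLT1, and both held. FLT1 was at 467 to 1240 in AT and at 2448, 1071 and 3010 in the controls, so that AT 2 was above Control 2 (log2FC -1.44 ± 0.31, edgeR adjusted p = 0.00949). The other VEGF receptor gene KDR was at 2928 to 4527 in AT and at 7410, 736 and 8566 in the controls, and it was called without Control 2 (log2FC -1.29, edgeR adjusted p = 0.00288) but not with all 3 controls (-0.68 and 0.316). The low endothelial markers of Control 2 move with these genes. Without that library, 5 of the 23 vascular genes were downregulated and their median log2FC was -0.33, while the 10 endothelial markers had a median of -0.20 with 1 downregulated, KDR, which is in both lists. The part of endothelial cells in these values was not tested.

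**Figure D4:**
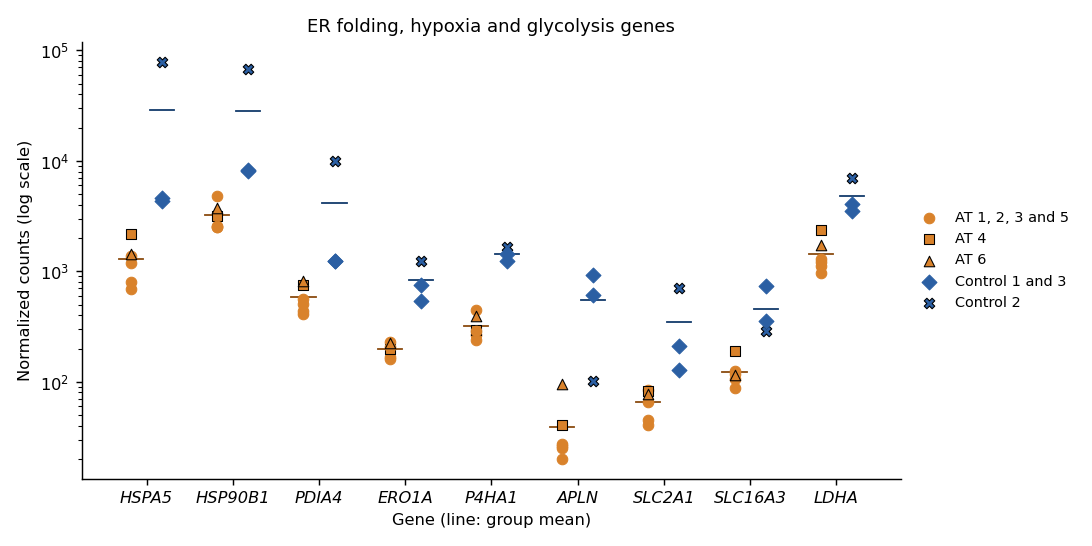
Normalized counts (log scale) of 9 genes of ER folding, hypoxia and glycolysis in each AT and control lamb, with a line at each group's mean. Each gene is lower in all 6 AT lambs than in all 3 controls, and HSPA5, HSP90B1 and PDIA4 are far higher in Control 2 than in Controls 1 and 3.

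Interferon-stimulated genes encode antiviral proteins made after type I interferon binds its receptor. Of 36 tested, 22 were upregulated in AT and none was downregulated (edgeR), against 5.74% of all genes upregulated, and 35 had a higher fitted level. The median log2FC was 1.88, with 1.46 and 11 upregulated genes without Control 2, and lay between 1.60 and 2.03 over the 6 scalings. IFI6, ISG15, IFIT1, MX1, XAF1, HERC6, DHX58, IFI44L, EPSTI1, RTP4 and IFIH1 held. ISG15, a ubiquitin-like modifier, was at 241, 476, 404, 313, 452 and 215 in AT and at 12.1, 6.13 and 9.90 in the controls (log2FC 5.15 ± 0.80, edgeR adjusted p = 0.00239; 4.91 and 0.0115 without Control 2). ISG15 had 10, 3 and 14 reads in Controls 1 to 3, so its fold change is imprecise. IFI6 was at 848, 1960, 1962, 2269, 1881 and 1221 in AT against 59.4, 87.9 and 38.2 in the controls (log2FC 4.80 ± 0.71, edgeR adjusted p = 0.00175). MX1, a GTPase that blocks viral replication, was at 1069 to 2112 in AT and at 78.8, 190.1 and 107 in the controls (log2FC 3.75 ± 0.67, edgeR adjusted p = 0.00419). For each of these genes all AT lambs lay well above all controls. MX2 was at 92.5 to 547 in AT, while the controls had 1, 0 and 4 reads, too few for a fold change to be given.

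Markers of immune cells were compared beside the interferon genes. Of 10 macrophage markers, 8 were in the table, with a summed level of 1724 to 4181 in AT and of 1551 to 2514 in the controls. Fitted levels were higher in AT for 6 of the 8, with a median log2FC of 0.72, or 0.87 without Control 2. Only CD14 was called, and it was downregulated (log2FC -1.78, edgeR adjusted p = 0.0408), with -0.51 and 0.518 without Control 2. The ranges of the summed levels overlapped, and the part of macrophages in the interferon result was not tested. T and B cell markers summed to 37.3 to 398 in AT and to 45.0 to 169 in the controls, with CD79B at or below 10 reads in all 9 libraries.

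Of 53 tested genes of mitosis and cytokinesis, 19 were upregulated and none was downregulated (edgeR), against 5.74% of all genes upregulated. The list's median log2FC was 1.85. Without Control 2 the median was 1.50 and 4 were called, without Control 3 it was 1.77 and 4 were called, and CENPF, AURKA and CENPE held. CENPF, a kinetochore protein, was at 87.6, 97.4, 149, 253, 134 and 272 in AT and at 43.65, 32.7 and 16.98 in the controls (log2FC 2.44 ± 0.52, edgeR adjusted p = 0.00897). AURKA, the spindle pole kinase, was at 24.35 to 77.0 in AT and at 9.70 to 11.3 in the controls (log2FC 2.10 ± 0.47, edgeR adjusted p = 0.0106). AT 4 and AT 6 were the highest AT lambs for CENPF, AURKA and TOP2A, but the other 4 were also above the controls. MKI67, the proliferation marker, ranged from 109 to 425.0 in AT and was at 116, 12.3 and 38.9 in the controls, so AT 5 lay below Control 1 (log2FC 1.99 ± 0.64, edgeR adjusted p = 0.0523). For DNA replication, 4 of 42 genes were upregulated (ORC6, CDC45, CLSPN and MCM7), against 5.74% of all genes, and none of them held. The list's median log2FC was 0.54, or 0.21 without Control 2.

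AT 4 and AT 6 differed from the other AT lambs in markers of other cell types. The 7 mesothelial markers (median log2FC 2.88 over the 6 tested), of the cells that line the body cavity, summed to 7213 normalized counts in AT 4 and 2548 in AT 6, against 211 to 586 in the other AT lambs and 209.7 to 354 in the controls. KRT19 was at 1879 in AT 4 and 491 in AT 6 and at 15.8 to 119 in the other 7 lambs, and the list's 2 called genes, LRRN4 and WT1, did not hold. The 9 markers of fibroblasts and preadipocytes summed to 95585 in AT 6, against 15240 to 33210 in the other AT lambs and 16043 to 31629 in the controls, and COL1A1, the main fibrillar collagen, was at 59373 in AT 6 and at 5180 to 16664 in the others (log2FC 1.30 ± 0.71, edgeR adjusted p = 0.228). AT 6 was also the lowest AT lamb for UCP1, GK, PNPLA2 and LIPE. The part of these cells in the differences was not tested. FABP4, FABP5, GK, SLC7A10, HSPA5, APLN, ISG15 and CENPF were each called with any 1 AT lamb left out, and leaving out AT 4 and AT 6 together was not tried.

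**Figure D5:**
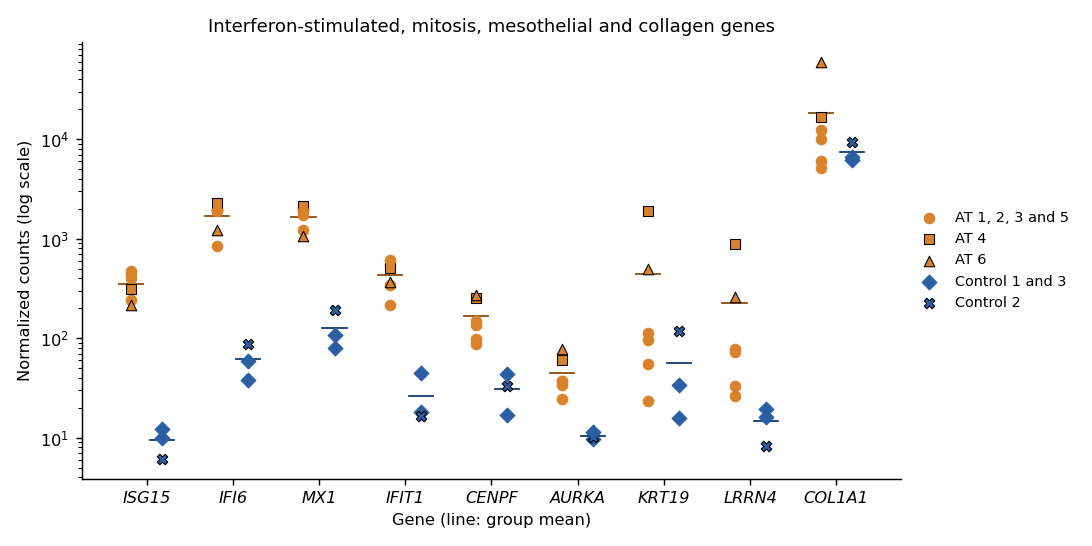
Normalized counts (log scale) of 9 interferon-stimulated, mitosis, mesothelial and collagen genes in each AT and control lamb, with a line at each group's mean. ISG15, IFI6, MX1, IFIT1, CENPF and AURKA are higher in every AT lamb than in every control, whereas KRT19 and COL1A1 overlap and are highest in AT 4 and AT 6.

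Of 63 collagens and matrix glycoproteins, 6 were upregulated and 4 downregulated, where 5.74% and 2.99% of all genes were (median log2FC 0.03, between -0.16 and 0.31 over the 6 scalings), of which COL4A6, COL4A5 and TIMP3 held. COL4A6 and COL4A5 encode basement membrane collagen chains. COL4A6 was at 149, 188, 199.9, 504, 295 and 379 in AT and at 14.55, 18.4 and 41.7 in the controls (log2FC 3.45 ± 0.49, edgeR adjusted p = 0.00154; 3.20 and 0.00495 without Control 2). TIMP3, an inhibitor of matrix proteases, was at 168.5 to 296 in AT and at 579.5, 6168 and 517 in the controls (log2FC -3.27 ± 0.54, edgeR adjusted p = 0.00295; -1.22 and 0.00758 without Control 2). Smooth muscle and pericyte markers summed to 10373 to 19347 in AT and to 21591 to 34006 in the controls, without overlap. ACTA2, TAGLN and DES were downregulated among their 8 genes, and none held. The AT lambs were below the controls in ACTA2 (log2FC -1.46 ± 0.34, edgeR adjusted p = 0.014), with 0.0718 without Control 3.

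Further markers bear on the depot's neighbours. Kidney markers summed to 16.04 to 62.1 in AT and 22.6 to 28.6 in the controls, with UMOD and AQP2 at 0 in all 9 libraries. Adrenal cortex markers summed to 48.1 to 858 in AT and to 147, 2611 and 202 in the controls, with STAR giving 842 of the 858 in AT 1 and 2476 of the 2611 in Control 2, while CYP11B1 and MC2R were at 0 and CYP11A1, HSD3B1 and NR5A1 at or below 10 reads throughout. Skeletal muscle markers summed to 134 to 362 and 296 to 462, with MYH1, MYH2, MYL1 and CKM at or below 10 reads. Erythroid markers summed to 859 to 4649.5 and 1864 to 5874, neutrophil markers to 56.1 to 137 and 73.6 to 601, and Schwann cell and neuron markers to 562 to 1431 and 434.0 to 1231. Each of these ranges overlapped between the groups. In these lists and the endothelial one, ACTA1 and S100A9 were downregulated and CDH5 was upregulated, and none of them held.

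Of 31 genes of adrenergic and cyclic AMP signalling, 2 were upregulated and 3 downregulated (median log2FC -0.16), where 5.74% and 2.99% of all genes were. PDE4B, which breaks down cyclic AMP, held at 110.1 to 200.5 in AT and 50.2 to 63.05 in the controls (log2FC 1.45 ± 0.30, edgeR adjusted p = 0.00837). AKAP12, a scaffold for protein kinase A, held with 525.5 to 1169 against 1758 to 4298 (log2FC -1.85 ± 0.32, edgeR adjusted p = 0.00376). AKAP1, the mitochondrial scaffold, was at 1098 to 12803 in AT and at 197462, 1946 and 65390 in the controls, so that its log2FC of -4.03 ± 0.91 (edgeR adjusted p = 0.0117) rested on Controls 1 and 3 and was not called without Control 1 (0.068). Among 25 immediate early genes, which respond within minutes to stimuli, 4 were downregulated and 20 had a lower fitted level (median log2FC -0.52, or -0.56 without Control 2), and FOSL1 and ZFP36 held (log2FC -3.78 and -2.02, edgeR adjusted p = 0.0017 and 0.00239), whereas FOS was not called (log2FC 0.20 ± 0.65, edgeR adjusted p = 0.872).

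Of 19 circadian clock genes, 4 were upregulated and 1 was downregulated, where 5.74% and 2.99% of all genes were. DBP, a transcription factor at the output of the clock, was at 1014, 882, 1725, 2149, 1886 and 733.5 in AT and at 413, 159.5 and 179.7 in the controls (log2FC 2.47 ± 0.44, edgeR adjusted p = 0.00386), and BHLHE40, a repressor, was at 58.2 to 101.3 against 216 to 380.2 (log2FC -1.82 ± 0.34, edgeR adjusted p = 0.00538). Both held. The hour of sampling is not given in the sources used here, and its part was not tested. Among 24 genes that are imprinted or belong to the insulin-like growth factor system, 3 were upregulated, NNAT among them, against 5.74% of all genes. PEG3, a paternally expressed zinc finger gene, held with 1251 to 2750 in AT and 352 to 513 in the controls (log2FC 1.84 ± 0.28, edgeR adjusted p = 0.00215). IGF2, the fetal growth factor, was at 1714 to 5338 in AT and 3473 to 6724 in the controls (log2FC -0.52 ± 0.36, edgeR adjusted p = 0.345).

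Smaller lists held few calls, to be read against 5.74% of all genes upregulated and 2.99% downregulated. Of 16 glucocorticoid genes 3 were downregulated (ZFP36 held, while PDK4 and SGK1 did not), of 31 antioxidant genes 2 were upregulated and 3 downregulated (none held), of 21 genes each of lipid synthesis and of cholesterol 1 was called in each direction (none held), and of 14 thyroid hormone genes THRSP alone was called (log2FC 2.58 ± 0.72, edgeR adjusted p = 0.0304), with 0.0836 without Control 1 and 0.0842 without Control 3. Of 6 genes of the aryl hydrocarbon receptor pathway TIPARP was downregulated and held (log2FC -2.43 ± 0.45, edgeR adjusted p = 0.00488; -1.06 without Control 2).

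Outside these lists, the largest increases among held genes with a symbol and without overlap included membrane proteins and receptors. ABCC8 (chromosome 15, 37930949 to 38012088), the sulfonylurea receptor subunit of ATP-sensitive potassium channels, was at 634.5, 332, 685, 1234, 1516 and 90.9 in AT and at 8.49, 20.4 and 9.20 in the controls (log2FC 5.98 ± 1.40, edgeR adjusted p = 0.0138). RHBDL1 (chromosome 24, 549009 to 551627), a rhomboid-like membrane protein, was at 459 to 2351 in AT and at 42.4, 16.35 and 33.25 in the controls (log2FC 5.14 ± 0.61, edgeR adjusted p = 0.000463). GAS2L2, TDRD9, LRRC36 and the chemokine scavenger ACKR4 followed with log2FC of 5.09, 4.87, 4.37 and 4.12. Their reads in Controls 1 to 3 were few, so these fold changes are imprecise. There were 3, 5 and 3 reads of GAS2L2, 6, 0 and 8 of TDRD9, 12, 1 and 41 of LRRC36 and 8, 1 and 11 of ACKR4. ABCC8 had 7, 10 and 13 reads in Controls 1 to 3, so its fold change is imprecise too. FFAR4, a receptor for long-chain fatty acids, was at 10.7 to 124 in AT, while the controls had 1, 1 and 2 reads, too few for a fold change to be given.

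With all 3 controls, the largest decreases after HSPA5 were those of TUBA4A and ACOX2. This order changed without Control 2, when HSPA5 was at -1.90 and APLN at -4.34. TUBA4A, an alpha-tubulin, was at 51.9 to 180.0 in AT and at 878, 4223 and 631 in the controls (log2FC -4.21 ± 0.49, edgeR adjusted p = 0.000463; -2.96 without Control 2). ACOX2, a peroxisomal oxidase of branched acyl-CoA, was at 79.1, 70.9, 67.7, 87.1, 79.1 and 65.2 in AT and at 647, 2723 and 556.0 in the controls (log2FC -4.12 ± 0.46, edgeR adjusted p = 0.000408; -3.10 without Control 2). The AT lambs were close to each other for ACOX2, and far below the lowest control. SLC7A6, CNTNAP5, IL1RN and DYNC1I1 fell by 3.69, 3.53, 3.17 and 3.15 on the log2 scale. Without Control 2 their log2FC was -2.76, -3.36, -2.64 and -1.89. In the AT lambs SLC7A6 had 4 to 26 reads, CNTNAP5 2 to 27, IL1RN 12 to 92 and DYNC1I1 2 to 24, so these fold changes are imprecise. The most abundant upregulated genes by the same rule were PPP5C (log2FC 3.00, which overlaps LOC114118010 and is uncertain), TJP1 (1.50), MVP (2.03), SEMA3B (1.75) and ZBTB20 (1.77). TJP1, SEMA3B and ZBTB20 lost their call in a fit of only the AT and control libraries, and TJP1 was at 1.04 without Control 2.

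Cold lambs of the same age were compared with the AT lambs in the same fit, which addresses temperature at equal age and housing time. In this fit no gene was called by edgeR (1181 had an unadjusted p under 0.05), while DESeq2's Wald test called 97. With other settings edgeR did call genes, 25 in a fit of the cold and AT libraries alone and 14 with TMM. UCP1 had a log2FC of 0.81 in cold against AT (edgeR adjusted p = 0.787), FABP4 of 0.80 (0.4004), HSPA5 of 0.18 (0.938) and ISG15 of 0.95 (0.631).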

How the data were processed

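Total RNA was extracted with TRIzol, selected with oligo(dT), reverse transcribed from random hexamers and sequenced as paired ends on a BGISEQ-500. Per the methods and processing notes, the authors checked reads with FastQC 0.11.9, trimmed them with Trimmomatic 0.39, aligned them with STAR 2.7.7a to Oar_rambouillet_v1.0 and counted them with featureCounts of Subread 2.0.0. Reads mapping to several places were counted at each, so near-identical copies share reads, and the use of strand is not given in the sources used here. The deposited values are raw counts per gene.

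Counts were scaled with size factors from ACTB, RPL19 and HUWE1 (DESeq2 1.42.0), a gene was kept where 10 or more of the 15 BAT libraries held 10 or more reads of it, and edgeR 4.0.16 (R 4.3.3) fitted a robust quasi-likelihood model with 3 groups (AT, control, cold). Genes were called at |log2FC| ≥ 1 and a Benjamini-Hochberg adjusted p under 0.05. SE was |log2FC| divided by the square root of the F statistic, and the script was tested on simulated data. Named genes were the 10 largest and 10 smallest log2FC and the 5 most abundant genes per direction among held genes with a symbol, no overlap and a mean of at least 50, the 38 genes chosen by the study, the reference genes, and per list the 4 called genes with the smallest adjusted p (2 genes where none was called), and UCP1, IGF2, IGF1, HSPA5, APLN, COL1A1 and LEP. Other genes named in the report were chosen after their values were seen. Members and gene lists were chosen with earlier results of these data known. List names were matched to the table by symbol, with 30 matched through older or LOC names. The study's methods leave out 1 control without naming it, and all 3 were kept here. Leaving out Control 2 gave log2FC of -1.30 for PPARGC1A and -0.29 for PDK4, the values the study reported for BAT. Calls with all 3 controls differ from the study's for genes such as UCP1 and VEGFA. Both calls depend on Control 2, and that of VEGFA depends on scaling as well. The study tested with DESeq2 and not with edgeR. Each lamb gave 1 BAT library, and precision is set by the 3 controls. Some genes are not reported here. Alternatives were other scalings, filters, tools and each lamb left out.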

Additional observations from a re-analysis of the deposited data

Results flagged for a closer look

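In the 6 AT lambs, 199 values (158 named genes and 41 list levels) were screened with Dixon's test, which flags about 1 in 20 groups by chance, and 20 had an AT lamb far from the other 5. AT 6 was the outlying lamb for normalized counts of PNPLA2 (3207), LIPE (536), PDE3B (459.8), ADRB3 (65.2) and ALAS2 (29.4). It was also outlying for the level of the lists of heat production (-1.66), adipocyte genes (-1.54), the respiratory chain (-1.12), lipid synthesis (-0.97) and thyroid hormone genes (-0.76), each on the low side. AT 4 stood out for HYOU1 (785.7), S100A9 (67.8), the amino acid stress list (0.21) and the translation initiation list (0.18). Its counts lay above the median of the other libraries, by a median of 0.26 (log2) for genes of 56 to 1829 bases. For genes of 4693 to 70726 bases this difference was 0.53. The size factor of AT 4 was 0.988 from the reference genes and 1.34 with TMM. Values of AT 4 are to be read beside this shift, and the part of scaling in them was not tested. AT 1 stood out for STAR (842), the 1 tested gene of the adrenal cortex list (level 2.45). AT 5 stood out for RPL19 (12260), TEF (838) and DYNC1I1 (2.98), and AT 3 for FARSB (234).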

How the results depend on the processing

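Against 1304 called genes (858 upregulated, 446 downregulated), a fit of only the AT and control libraries called 445 (268 and 177), and TMM without Control 1 called 2265 (chosen after seeing the data). Upregulated genes numbered 1370 without RPL19 as a reference and 1330 with DESeq2's Wald test. Downregulated genes numbered 773 with TMM, 822 with median-of-ratios factors, 924 without ACTB, 217 without HUWE1, 809 on adjusted p alone, and 1184 and 1080 with TMM without Control 1 or Control 3. With 1 lamb left out, called genes ranged from 907 (without Control 2) to 1469 (without AT 6), upregulated genes from 426 (without Control 2) to 1011 (without AT 6) and downregulated genes from 320 (without AT 3) to 546 (without Control 1). For cold against AT, with 0 genes called, TMM gave 14, median-of-ratios factors 15, no RPL19 8, DESeq2 97, the cold and AT libraries alone 25, and leaving out 1 AT lamb 0 to 14 (14 without AT 2). The cause of these shifts was not tested. Of 158 named genes, 37 lost their call without Control 2 and PLIN2 reversed, from -1.89 to 0.26 (-2.35 to 0.26 over single lambs left out), while 45 lost it in the fit of AT and control libraries alone. Of the 436 held genes, 409 were also called in the same direction under the 5 other scalings. No paired analysis was possible because the groups hold different lambs and the numbers only name them. DESeq2 gave no adjusted p for 37 tested genes, 15 of them among the 1304 and 6 among the 436. Precision is limited by 3 controls, 1 of which stands apart, and genes seen only in controls could not pass the filter.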

Other observations

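Beyond the lists, held genes of metabolism and transport, chosen after their values were seen, moved in both directions. PCK1, which makes glycerol phosphate for triglyceride in fat, was at 443, 1115, 789.9, 226, 1019 and 109.6 normalized counts in AT 1 to AT 6 and at 20.6, 10.2 and 79.9 in the controls (log2FC 3.95 ± 0.87, edgeR adjusted p = 0.0105). GPT2, the mitochondrial alanine transaminase, had a log2FC of 2.46 ± 0.53 (edgeR adjusted p = 0.00936), and SLC7A7, an amino acid transporter, of 1.83 ± 0.23 with 689.7 to 1161 in AT and 217 to 239 in the controls (edgeR adjusted p = 0.000694). ABCG2, an efflux transporter, was at 1625 to 3822 against 217 to 561 (log2FC 2.41 ± 0.38, edgeR adjusted p = 0.00239).

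ATP1B3, a beta subunit of the sodium pump, fell. It was at 233 to 411 in AT and at 1004, 1220.4 and 961 in the controls, close together (log2FC -1.62 ± 0.19, edgeR adjusted p = 0.000463). The transferrin receptor gene TFRC was at 209 to 650.0 against 997 to 1396 (log2FC -1.80 ± 0.33, edgeR adjusted p = 0.00474). For each of these genes the AT and control lambs did not overlap.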
